A study of Mus musculus with 4 samples.

Results

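A set of 92 genes was silent in wild-type (wt) mouse embryonic fibroblasts (MEF cells) and expressed in Top2β-null MEF cells. The genes were selected on their counts: a gene had at most 3 raw reads in each wt library and at least 1 CPM (counts-per-million of the library total) in each Top2β-null library, and symbols starting with Hox, Oas, Ifi, Pcdh, Col, Zfp or Peg were left out. Of 54842 genes in the table, 92 met this rule, and 13 more met the count limits but were left out by symbol (Peg3, Hoxa10, Oas1a, Hoxa9, Oasl2, Ifi44, Zfp981, Zfp985, Zfp583, Oas1b, Zfp618, Oas1g and Pcdh17). Because the rule uses the difference between the genotypes, that difference is a description of the 92 genes and was not tested on them.

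The data are 4 libraries of total RNA without ribosomal RNA, 2 from untreated wt and 2 from untreated Top2β-null MEF cells. The wt MEF cells carry no allele named in the labels, and the Top2β-null MEF cells were made from mice that lack topoisomerase 2β and reached the study as a gift from other laboratories. The null allele and the age of the embryos are not given in the labels. The labels do not say that the libraries of a genotype came from separate cultures, so p-values measure only the spread between these libraries. In this design the origin of the cells and the missing Top2β cannot be told apart.

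Topoisomerase 2β, the product of Top2b, passes one DNA duplex through another and thereby relieves torsion and tangles that build up during transcription. It is the form of the enzyme that non-dividing cells use, and in neurons it is known for a role in expression of long genes. Genes that a fibroblast keeps off are held silent in several ways, among them methylated CpG-rich promoters, Polycomb chromatin and the parental imprint of 1 allele.

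The libraries held between 133116830 and 149647278 counts. For Top2b, normalized counts of 18259 and 18465 in wt stood beside 3879 and 3789 in Top2β-null MEF cells, so 20.9% of the wt level remained (log2 fold change -2.26, SE 0.0271, edgeR adjusted p = 6.56e-19). Where in Top2b the remaining reads lie was not analysed here. The authors report, by Western blot, that Top2β protein was absent from the Top2β-null MEF cells. Top2a, the gene of the related enzyme of dividing cells, had a log2 fold change of 0.07. Of 12 fibroblast markers, 11 were at or above 1 CPM in some library, and their summed normalized counts were 1346226 and 1372013 in wt and 920234 and 925342 in Top2β-null MEF cells, most of it Col1a1, Col1a2, Vim and Fn1. Of 11 fibroblast markers tested, 4 were called higher and 3 lower, among them Dcn (224 and 231 reads in wt against 6810 and 7309), Thy1 (4197 and 4521 against 17171 and 18618) and Postn (2549 and 2653 against 40 and 47). The 8 smooth muscle markers summed to 130210 and 133044 in wt and to 19050 and 19002 in Top2β-null MEF cells, and 5 of them were called lower. Across 25085 genes tested with edgeR, 1385 (5.52%) were called higher and 1317 (5.25%) lower in Top2β-null MEF cells. Among 14669 protein-coding genes tested, 1058 (7.21%) were called higher and 1039 (7.08%) lower. To be called, a gene needed a mean of more than 100 normalized counts, a change of more than 1 on the log2 scale and an adjusted p below 0.05.

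Sequences are shown here for 5 members whose start or product the values below come back to. Promoter windows run from 250 bases before to 50 bases after a start site and were taken from RefSeq on GRCm38.p6, printed 5′ to 3′ on the strand of the gene. The table held a promoter for 54 of the 92 members and for 46 of the 60 protein-coding members (76.7%), too few for a share of members with a motif. Capitals mark every match, on either strand, of TATAAA (the TATA box), CCAAT (known to be bound by NF-Y), GGGCGG (by SP factors), TGAGTCA (by AP-1), TGACGTCA (by CREB), CACGTG (an E-box), GAAANNGAA (found in interferon response elements) and TTCNNNGAA (by STAT factors), and matches that overlap are printed as 1 run of capitals. The first is the start of Irx2 (chr13:72628570-72628869, plus strand), which the predicted RNA Gm20554 shares on the opposite strand:
Irx2: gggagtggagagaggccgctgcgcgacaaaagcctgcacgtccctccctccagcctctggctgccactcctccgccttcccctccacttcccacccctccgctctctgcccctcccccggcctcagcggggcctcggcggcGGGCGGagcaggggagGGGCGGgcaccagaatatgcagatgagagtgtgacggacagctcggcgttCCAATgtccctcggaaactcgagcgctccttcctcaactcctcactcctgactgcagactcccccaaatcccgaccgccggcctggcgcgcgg
The next is the CpG-rich one of 2 RefSeq starts of the imprinted gene Grb10, the most abundant member (chr11:12037371-12037670, minus strand):
Grb10: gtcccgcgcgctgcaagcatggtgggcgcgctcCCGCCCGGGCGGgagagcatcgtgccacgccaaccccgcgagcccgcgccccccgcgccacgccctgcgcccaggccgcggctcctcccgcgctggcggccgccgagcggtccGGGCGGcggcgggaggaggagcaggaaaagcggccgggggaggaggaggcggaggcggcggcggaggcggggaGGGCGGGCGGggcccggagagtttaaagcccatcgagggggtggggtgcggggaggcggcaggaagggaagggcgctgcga
The other windows belong to the interferon-stimulated genes Ddx60 (chr8:61927837-61928136, plus strand) and Igtp (chr11:58199306-58199605, plus strand):
Ddx60: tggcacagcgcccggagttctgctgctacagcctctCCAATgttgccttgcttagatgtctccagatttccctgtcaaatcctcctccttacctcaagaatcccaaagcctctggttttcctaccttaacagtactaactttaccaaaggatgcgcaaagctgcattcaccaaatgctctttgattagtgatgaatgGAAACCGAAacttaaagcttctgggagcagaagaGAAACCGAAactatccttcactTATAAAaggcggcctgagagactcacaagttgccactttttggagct
Igtp: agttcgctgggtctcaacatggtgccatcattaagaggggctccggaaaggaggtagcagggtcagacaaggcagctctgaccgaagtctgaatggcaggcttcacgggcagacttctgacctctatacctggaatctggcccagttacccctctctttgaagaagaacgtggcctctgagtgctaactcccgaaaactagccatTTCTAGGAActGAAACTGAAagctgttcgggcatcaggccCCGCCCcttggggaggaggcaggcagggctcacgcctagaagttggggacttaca
The window of Irx2 held GGGCGG at 2 places and CCAAT at 1 place. The window shown for Grb10 held GGGCGG at 5 places, in 300 bases of which 80% were G or C and 45 were the C of a CpG. The other Grb10 window, at chr11:12027922-12028221, held no GGGCGG, 52.3% G or C and 9 CpG, and which start the reads come from was not analysed here. Of 32851 mouse promoters of the same length, 35.7% held GGGCGG and 37.4% held CCAAT. GAAANNGAA, letters contained in the element that interferon regulatory factors bind, was found at 2 places in the window of Ddx60 and at 1 place in that of Igtp, and in 8.56% of all promoters. TATAAA was found once in the window of Ddx60 and in 13.6% of all promoters, and TTCNNNGAA once in that of Igtp and in 8.3% of all promoters. Both windows of Sp100, a further interferon-stimulated member, held no GAAANNGAA. For Gbp9 no promoter window was available, so its start was not searched. These matches are descriptions of letters, not of bound sites. The promoters of Smarca1 and Sycp1 were the others of members in the table that held GAAANNGAA. The fifth sequence is the mature microRNA of Mir1906-1, a member in the Dlk1-Dio3 domain, with its seed (bases 2 to 8) in capitals (chr12:109544588-109544609, plus strand, RefSeq):
miR-1906: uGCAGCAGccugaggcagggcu

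Summed over all 92 members, 60 and 72 reads were counted in wt against 122953 and 128609 in Top2β-null MEF cells. Grb10 alone took 45.5% and 45.9% of these last 2 sums. In wt MEF cells 46 members had no read in either library and the other 46 had between 1 and 6 reads over both. In Top2β-null MEF cells the mean level ran from 1.03 to 423.7 CPM with a median of 2.22 CPM. Only 10 members reached 10 CPM, 14 lay between 5 and 10, 25 between 2 and 5 and 43 between 1 and 2. All 92 passed the filter on low counts, and they passed it through the Top2β-null libraries alone. edgeR called 72 of them higher, beside 5.52% of all genes, a count from which nothing is read because the rule used the same contrast.

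**Figure D1:**
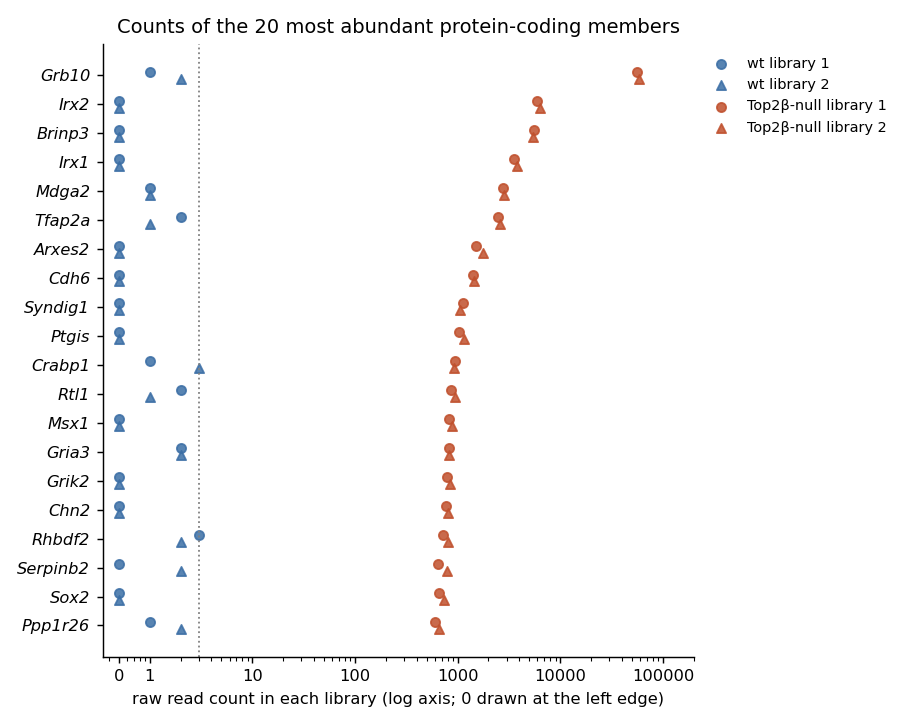
Raw read counts (log axis, with 0 at the left edge) of the 20 most abundant protein-coding members in each of the 4 libraries; circles are library 1, triangles library 2, blue wt and red Top2β-null, and the dotted line marks 3 reads. Every wt point lies at or left of 3 reads, which the rule requires, and the Top2β-null points run from 607 reads (Ppp1r26) to 59044 (Grb10).

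The Top2β-null libraries gave nearly the same level for most members. The median absolute log2 difference between them was 0.07 and 86 of 92 members lay within 1.2-fold. The largest difference was that of Gm4759, with 219 and 318 reads (0.48 on the log2 scale). Among members from 1 to 10 CPM the median difference was 0.08, as it was for all 6317 genes of that range (0.08). In each Top2β-null library 46 members were the higher ones.

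**Figure D2:**
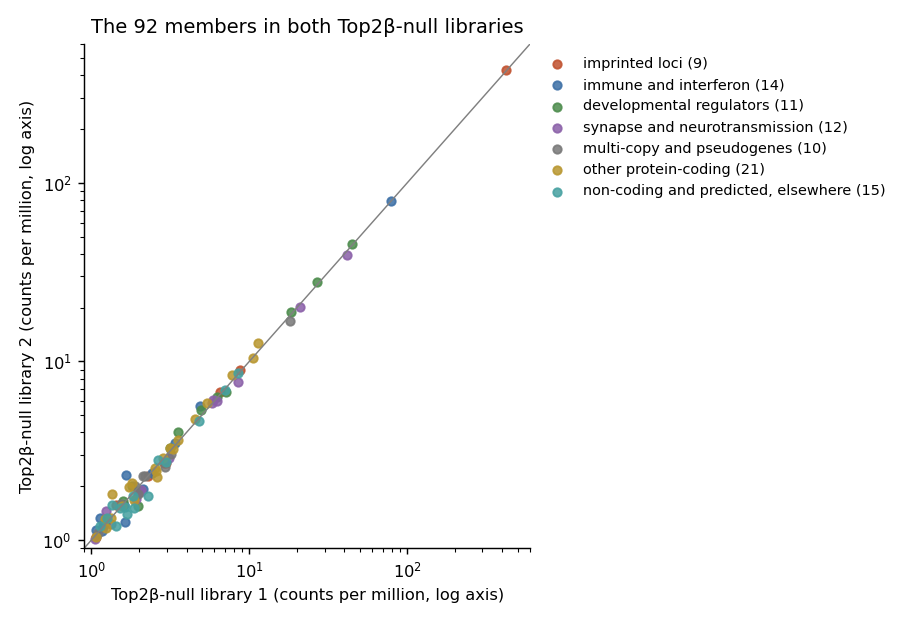
Level of each of the 92 members in the Top2β-null libraries (CPM, log axes), coloured by the group in which the text describes it; the line marks equal levels. Most points sit at 1 to 10 CPM close to the line, and Grb10 stands alone at 423.7 CPM.

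Fold changes against so few reads are bounded by counting error. For members with no wt read, the fold is given against a floor of 3 reads summed over the wt libraries. These bounds ran from at least 98.1-fold to at least 7312-fold, with a median of 223.2. For members with wt reads, the ratio is given with its exact 95% counting interval, and the ratios ran from 66.9 (Slc22a17, interval 28.4 to 207.4) to 39305 (Grb10, interval 13449 to 190596). The intervals cover counting error alone.

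Developmental regulators, together with Crabp1 and the non-coding Gm20554, Gm47061 and Sox2ot beside or across them, made up 11 members, 6 of them without a wt read. Such groups were made for the description, with the members known. Irx2 and Irx1 are homeobox factors of the Iroquois family, which pattern limbs, heart and nervous system. Irx2 (ENSMUSG00000001504, chr13:72628820-72634198) had 0 and 0 reads in wt against 5982 and 6291 in Top2β-null MEF cells, or 45.2 ± 0.416 CPM (SD, n = 2), at least 4196-fold higher. Irx1 (ENSMUSG00000060969, chr13:71957921-71963723) had 0 and 0 reads in wt and 3567 and 3830 in Top2β-null MEF cells, at least 2529-fold higher. Both genes thus had no read in wt and at least 3567 in each Top2β-null library, and the groups do not overlap, as the rule requires. Gm20554, a lincRNA that starts at the promoter of Irx2 on the opposite strand, had 0 and 0 against 417 and 454 reads. The 3 lie within 676.3 kb of chromosome 13. Irx4, the remaining Iroquois gene of that chromosome, had 0 and 0 reads in wt and 3 and 0 in Top2β-null MEF cells. Of the Iroquois genes on chromosome 8, Irx3 (132 and 128 against 107 and 106 reads) and Irx5 (999 and 1081 against 938 and 1047) were not called, and Irx6 stayed at 0 to 2 reads in every library. In bulk RNA, more cells that express a gene and more RNA per cell cannot be told apart.

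Tfap2a, which encodes the AP-2α factor of neural crest and ectoderm, had 2 and 1 reads in wt and 2455 and 2593 in Top2β-null MEF cells (18.6 ± 0.228 CPM, n = 2). Its antisense RNA Gm47061 had 0 and 1 against 472 and 556 reads. Whether the counting used strand is not stated in the sources used here, so reads of such pairs cannot be told apart. Msx1, a homeobox factor of limb, jaw and tooth, had 0 and 0 against 829 and 877 reads, at least 583.3-fold higher. Pax3, a paired-box factor of neural crest and muscle precursors, had 0 and 0 against 239 and 276 reads. Sim2, a basic helix-loop-helix PAS factor, had 0 and 1 against 264 and 214. Crabp1, which binds retinoic acid in the cytoplasm, had 1 and 3 against 951 and 931 reads.

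Sox2, a factor of pluripotent cells and neural progenitors, had 0 and 0 reads in wt and 654 and 737 in Top2β-null MEF cells, at least 475.6-fold higher. Sox2 lies inside Sox2ot, a long RNA on the same strand, which had 3 and 2 against 211 and 228 reads. Other pluripotency markers were low: Nanog had 3 and 1 against 42 and 43 reads, Pou5f1 13 and 14 against 9 and 20, and Zfp42 and Dppa3 at most 1 read in any library. The 8 genes of the pluripotent and germ cell list summed to 22.2 and 18.4 normalized counts in wt and 734.3 and 796.3 in Top2β-null MEF cells, most of it Sox2, and 7 of 8 were under 1 CPM in every library.

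The same direction was not shared by all developmental factors outside the set. Of 46 other homeobox and Pax genes tested, 11 were called higher and 4 lower, led by the paired box gene Pax1 (11 and 7 against 13483 and 14892 reads, log2 fold change 10.64, SE 0.08) and Six2 (3001 and 3155 against 7 and 2, log2 fold change -9.34, SE 0.132). Of 32 Sox, Gata, Zic and basic helix-loop-helix factors, 7 were called higher and 5 lower, with Gata4 at 8.37 (SE 0.144) and Gata1 at -9.16 (SE 0.13). Beside these, 7.21% of protein-coding genes were called higher and 7.08% lower.

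Imprinted loci gave 9 members. Imprinted genes are expressed from the allele of only 1 parent, under a methylated control region that is set in the germline. Grb10, an adaptor protein that restrains insulin and growth factor signalling, is imprinted. It had 1 and 2 reads in wt and 55911 and 59044 in Top2β-null MEF cells (chr11:11930508-12038683). Its 423.7 ± 5.14 CPM (SD, n = 2) made it the highest of the members. Per length, at 161.4 ± 0.453 TPM (a level scaled by exon length and depth), it ranked 799 of all genes in these cells. The flanking gene Cobl was called lower, with 1276 and 1413 against 305 and 237 reads (log2 fold change -2.27).

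The Dlk1-Dio3 domain on chromosome 12 held 7 members. From the maternal chromosome this domain gives long non-coding RNAs that carry many small RNAs, and from the paternal one Dlk1, Rtl1 and Dio3. Mirg, a host RNA of microRNAs, had 1 and 3 reads in wt and 1167 and 1242 in Top2β-null MEF cells. Rtl1, a protein derived from a retrotransposon that placenta and muscle use, had 2 and 1 against 872 and 936. The ratios were 617.8 (interval 241.0 to 2269) for Mirg and 618.2 (211.2 to 3000) for Rtl1. MicroRNA genes of the maternal RNAs, Mir433 and Mir127 among them, overlap Rtl1 on the opposite strand, and since the strand setting of the counting is not known, reads of Rtl1 cannot be told apart from antisense reads. The lincRNAs B830012L14Rik (0 and 1 against 397 and 375 reads), Gm26945 (0 and 0 against 382 and 373) and Gm26906 (0 and 1 against 273 and 258) lay between or beside them. The small RNAs among the members were the snoRNA Gm24895 (0 and 0 against 304 and 315 reads) and Mir1906-1 (0 and 0 against 143 and 144), whose mature sequence is printed above. These genes are 74 and 80 bases long, and reads of longer RNAs over the same bases cannot be told apart from theirs.

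Of the long RNAs of the domain that missed the wt limit, Meg3, in which Gm26906 lies on the opposite strand, had 8 and 9 reads in wt and 6072 and 6024 in Top2β-null MEF cells (log2 fold change 9.49, SE 0.0929, adjusted p = 7.45e-20). Rian, in which Gm26945 and Gm24895 lie, had 9 and 11 against 10051 and 10556 (10.03, SE 0.07). Dlk1, a ligand-like membrane protein, had 24.2 and 8.69 against 138.8 and 138.7 normalized counts (3.08, SE 0.292, adjusted p = 1.15e-07), but with a mean under 100 it was not called. From Meg3 to the end of Mirg, 209 kb, 58 annotated features had at least 20 reads over the 4 libraries, and 55 of them had at most 3 in each wt library. With so few wt reads a feature reaches 20 only through the Top2β-null libraries, so nothing is read from that count. Of the 58 features 50 were microRNAs, snoRNAs or similar small RNAs, 49 of them with no wt read and with 7 to 315 reads in each Top2β-null library.

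**Figure D3:**
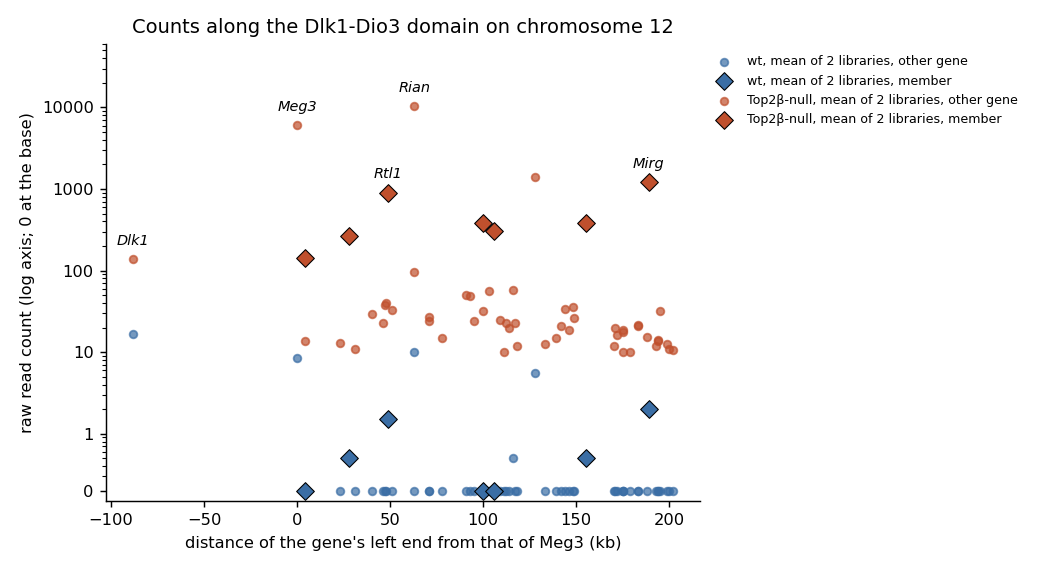
Mean raw counts (log axis, with 0 at the base) of annotated genes with at least 20 reads in all along the Dlk1-Dio3 domain in wt (blue) and Top2β-null (red) MEF cells, mean of 2 libraries each, by distance from Meg3 (kb); diamonds are members. Every plotted gene from Meg3 to Mirg is higher in red than in blue, and Meg3 and Rian lie above the members. Of the 58 features there, 55 had at most 3 reads in each wt library. Those could reach 20 reads only through the Top2β-null libraries, so nothing is read from their direction.

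Mkrn3, a paternally expressed ubiquitin ligase of the Prader-Willi region that holds back puberty, had 0 and 0 reads in wt and 189 and 217 in Top2β-null MEF cells, at least 138.8-fold higher. Its neighbours on both sides are imprinted too. Ndn, a MAGE family protein, had 7 and 5 against 610 and 664 reads (log2 fold change 6.74, SE 0.177), and Peg12 had 9 and 1 against 2085 and 2174 (8.73, SE 0.164). Both were called higher.

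Genes of synapses and neurotransmission, with the transcripts A230059L01Rik and Gm47987 at Brinp3 and Mdga2, made up 12 members, 6 of them without a wt read. Brinp3, a protein of neurons that restrains the cell cycle, had 0 and 0 reads in wt and 5555 and 5486 in Top2β-null MEF cells (40.7 ± 1.43 CPM, n = 2), at least 3775-fold higher. A230059L01Rik, which lies inside Brinp3 on the opposite strand, had 2 reads over both wt libraries and 490 over both Top2β-null libraries (1.81 ± 0.162 CPM, n = 2). Since the strand setting of the counting is not known, reads of this pair cannot be told apart. Mdga2, a surface protein that binds neuroligin, had 1 and 1 against 2765 and 2809, and Gm47987 inside it had 0 and 0 against 411 and 399. Brinp3 and Mdga2 had at least 2765 reads in each Top2β-null library and at most 1 in each wt library.

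Receptors of transmitters had fewer reads than Brinp3 and Mdga2. Gria3, an AMPA receptor subunit, had 2 and 2 reads in wt and 826 and 827 in Top2β-null MEF cells. Grik2, a kainate receptor subunit, had 0 and 0 against 790 and 841. Grin2a, an NMDA receptor subunit, had 0 and 1 against 273 and 263, and Gabrg3, a GABA-A receptor subunit, 3 and 0 against 269 and 257. Each of these subunits was present in both Top2β-null libraries at 1 to 7 CPM. Syndig1, which acts at AMPA receptor synapses, had 0 and 0 against 1134 and 1065 reads. The cholinergic genes Slc5a7, the choline transporter (0 and 0 against 164 and 201), and Bche, butyrylcholinesterase (0 and 3 against 140 and 139), were close to the lower limit. Chn2, a Rac GTPase activating protein, had 0 and 0 against 768 and 811.

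Of 151 other ion channel and receptor genes tested, 16 were called higher and 14 lower, and their median log2 fold change was -0.02, beside 7.21% and 7.08% called and a median of -0.03 for protein-coding genes. Kcnip3, a calcium sensor of potassium channels, was at 8.25 (SE 0.172) and Clca3a1, a secreted modulator of chloride channels, at 5.42 (SE 0.102). Of 12 neuronal markers, 7 were under 1 CPM in every library, and the sum was 14162 and 14359 normalized counts in wt and 24180 and 24952 in Top2β-null MEF cells, most of it Ncam1, Tubb3, Map2 and Gap43. Of 6 tested, Ncam1 and Tubb3 were called higher. Among the others, Syt1 had 97 and 143 against 205 and 247 reads, Snap25 1 and 1 against 8 and 6, and Dcx 2 and 2 against 8 and 7. Rbfox3 (1 and 2 against 1 and 0 reads), Stmn2 (2 and 2 against 4 and 5) and Nefl (1 and 2 against 0 and 1) had at most 5 reads in every library.

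Immune and interferon genes made up 14 members. Interferons induce a broad set of antiviral genes through JAK-STAT signalling, and fibroblasts can respond to them. Sp100, a nuclear body protein, had 0 and 0 reads in wt and 448 and 480 in Top2β-null MEF cells, at least 317.3-fold higher. Gbp9, a guanylate-binding GTPase, had 1 and 3 against 323 and 326. Ddx60, a helicase of RNA sensing, had 2 and 1 against 156 and 155, and Igtp, an immunity-related GTPase, 2 and 1 against 143 and 156. Their wt counts were at most 3 while their Top2β-null levels lay between 1.1 and 3.42 CPM.

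Outside the set, of 71 other interferon-stimulated genes tested, 36 were called higher and 0 lower, and the median log2 fold change was 3.26, beside 7.21% called higher and a median of -0.03 for all protein-coding genes tested. At an unadjusted p below 0.05, edgeR put 3 of them lower, and DESeq2 called 0 lower. Trim25, a ubiquitin ligase of RNA sensing, had 14 and 11 against 7887 and 8242 reads (9.36, SE 0.0758), and Isg15, a ubiquitin-like modifier, 0 and 8 against 700 and 755 (7.50, SE 0.246). Irgm2, which overlaps Igtp, had 1 and 4 against 426 and 399 (7.33, SE 0.264).

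Gm8995 and Gm4759 are annotated as pseudogenes of the family of Gvin1, a very large interferon-inducible GTPase. Gm8995 (chr7:106504239-106511671) had 0 and 0 reads in wt and 10494 and 10892 in Top2β-null MEF cells, at least 7312-fold higher and the highest bound of the set. Gm4759 had 0 and 0 against 219 and 318 reads. Nearby family members included Gvin1 (75 and 52 against 1210 and 1198 reads, log2 fold change 4.28, SE 0.112) and Gm4070 (35 and 49 against 1029 and 1092, 4.69, SE 0.109). Because these copies are alike, how reads were split among them is uncertain.

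H2-DMb1, which loads peptides on class II molecules, had 2 and 2 reads in wt and 157 and 163 in Top2β-null MEF cells. On either side of it, H2-DMa had 73 and 39 against 58 and 68 reads and Psmb9 0 and 0 against 57 and 69, neither of them called. Cd53, a leukocyte tetraspanin, had 0 and 0 against 283 and 267. Klra17 (0 and 0 against 215 and 174) and Klra5 (2 and 1 against 164 and 175), receptors of natural killer cells, lie in 1 cluster with related copies. The nearest tested protein-coding genes on either side of them had fewer reads in Top2β-null MEF cells and were not called. These were Klra6 (386 and 370 against 218 and 204) and Klrd1 (10 and 13 against 0 and 0). Plac8 (0 and 0 against 158 and 167), Chil1, a chitinase-like secreted protein (0 and 0 against 213 and 216), and the cytokine receptor Il20ra (0 and 0 against 150 and 182) were alike in level. Serpinb2, an inhibitor of plasminogen activators, was higher, with 0 and 2 against 645 and 781 reads. Of 20 other major histocompatibility genes tested, 5 were called higher and 1 lower, with H2-Q4 at 6.23 (SE 0.19) and H2-K1 at 3.82 (SE 0.0528), and of 99 other chemokines, interleukins and receptors 22 were called higher and 9 lower, beside 7.21% and 7.08% of protein-coding genes. Il13ra1, an interleukin 13 receptor chain, was at 8.57 (SE 0.0672) and Csf2rb, a shared chain of cytokine receptors, at 6.0 (SE 0.276).

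The summed leukocyte markers were at 908.4 and 908.9 normalized counts in wt and 1132 and 1162 in Top2β-null MEF cells. Of 14 markers, 13 were under 1 CPM in every library, and most of the sum was Csf1r. Tyrobp, Adgre1, C1qa and C1qb had 0 reads in all 4 libraries, and Ptprc had 5 and 7 against 2 and 4. Itgam had 1 and 1 against 27 and 29 reads, and Fcer1g 30 and 35 against 52 and 54.

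Another 21 protein-coding members had varied roles. The most abundant was Arxes2, an X-linked gene of fat cell differentiation, with 0 and 0 reads in wt and 1520 and 1752 in Top2β-null MEF cells, at least 1119-fold higher, while its copy Arxes1 had 0 and 0 against 63 and 51. Cdh6, a cadherin of kidney and neural crest, had 0 and 0 against 1408 and 1438. Ptgis, prostacyclin synthase, had 0 and 0 against 1030 and 1157. These 3 were without a wt read and reached 8.06 to 12 CPM. Rhbdf2, which guides release of epidermal growth factor ligands, had 3 and 2 against 715 and 808 reads, and Ppp1r26 1 and 2 against 607 and 654. Igfbp2, a binding protein of insulin-like growth factors, had 0 and 0 against 337 and 350. Mgmt, which removes alkyl groups from guanine in DNA, had 0 and 0 against 230 and 272.

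Further members of this kind follow. Crispld1 (472 and 500 reads in Top2β-null MEF cells), D330045A20Rik (421 and 450), Tmem136 (248 and 232), Sycp1, a synaptonemal complex protein of meiosis (179 and 251), Gspt2, a translation termination factor (176 and 182), Crisp1 (162 and 181) and Larp6, which binds collagen mRNA (143 and 144), had no wt read. Aspa, Smarca1 (a chromatin remodelling ATPase), Gnai1 (a G protein subunit), Mks1 (a cilium protein), Fggy and Slc22a17 had 3 to 5 wt reads over both libraries and 162 to 445 reads in each Top2β-null library. Of 308 other transporter genes tested, 18 were called higher and 30 lower, beside 7.21% and 7.08% of protein-coding genes, and of 64 other cadherins and adhesion receptors 6 were called higher and 9 lower. The most changed were the transporters Slc24a3 (-9.22, SE 0.125) and Slc1a3 (8.14, SE 0.0675) and the adhesion proteins L1cam (-6.32, SE 0.0801) and Cdh3 (-6.30, SE 0.0951). The germline list, with Sycp1 as its only member, had 2 higher and 4 lower of 40 others tested, with Tex15 at -3.87 (SE 0.169) and Syce2 at -2.57 (SE 0.115).

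Multi-copy genes and pseudogenes gave 10 members whose counts depend on how reads were split among copies. Gm18757, a pseudogene inside Nlrp2 on the opposite strand, had 0 and 1 reads in wt and 2414 and 2333 in Top2β-null MEF cells. Nlrp2 itself, an inflammasome family gene of oocytes and early embryos, had 5 and 4 against 8379 and 8583 (log2 fold change 10.88, SE 0.0848). On chromosome 14, Gm3739, Gm3591, Gm3558 and Gm3667 lie within 1163 kb and had 170 to 315 reads in each Top2β-null library. Gm2974, of the same chromosome, had 2 and 0 against 204 and 220. Their neighbour Gm3636 was called lower (380 and 420 against 57 and 52 reads, log2 fold change -2.84). Other neighbours of these copies had more reads in Top2β-null MEF cells without being called: Gm3411 had 3 and 9 against 107 and 117, Gm3512 18 and 22 against 128 and 126, and Gm10406 0 and 0 against 104.6 and 132.7 normalized counts. AA414768 (0 and 0 against 424 and 420), Gm46339 (0 and 0 against 387 and 355), Gm48643 (1 and 0 against 284 and 316) and Gm14429 (0 and 0 against 146 and 152) complete this group.

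Of the 15 other members, mostly non-coding or predicted genes, several overlapped another gene. 1700048O20Rik, a lincRNA on chromosome 9 and the most abundant of them, had 0 and 0 reads in wt and 1122 and 1190 in Top2β-null MEF cells, and Gm49343, which overlaps it on the same strand, had 0 and 0 against 167 and 182. Gm26751, opposite to Nynrin, had 2 and 3 against 928 and 962, and Nynrin 3 and 4 against 2041 and 2154 (9.21, SE 0.13). Gm43489 (0 and 0 against 397 and 377) and Gm42975 (0 and 1 against 242 and 244) lie in Hgf, the hepatocyte growth factor gene, which had 7 and 0 against 8183 and 8307 (11.19, SE 0.129). Gm16564 lies opposite to Kif26b (35 and 44 against 5717 and 5884, 7.23), Gm45258 in Cdh11 (222 and 239 against 11419 and 12402, 5.73) and Gm15870 opposite to Tspan11 (50 and 33 against 4179 and 4377, 6.72). Gm19744 overlaps Tenm3 (11 and 15 against 15306 and 15648, 10.24) and D730005E14Rik overlaps Apobec3 (11 and 4 against 2588 and 2789, 8.50). Those 5 members themselves had at most 3 reads in each wt library and 166 to 390 in each Top2β-null library.

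In all, 13 members that are not protein-coding lay within 9 genes that are not members. Of those 9, 8 were called higher, holding 11 of the 13 members, 6 on the same strand and 5 on the opposite one. Beside this, 5.52% of all genes tested and 7.21% of protein-coding genes were called higher. The host genes were picked by the members, so this count was not tested and nothing is read from it. The ninth, Celf2, an RNA-binding splicing regulator, was called lower (14271 and 14982 against 6759 and 6836 reads, log2 fold change -1.07, SE 0.0264). It holds Gm10855 (0 and 0 against 303 and 245 reads) on the same strand and Gm26565 (0 and 0 against 202 and 209) on the opposite one, so these members are found in the cells where their host is lower. Reads from a host's introns cannot be told apart from those of a gene within it. Gm28710 (1 and 2 against 150 and 165 reads), 2810429I04Rik (0 and 3 against 638 and 640 reads) and Gm26760 (0 and 0 against 179 and 216) were the others of this group.

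Members were spread over 69 places in the genome, joining members less than 1 Mb apart. Of these, 14 held 2 or more members and 37 members in all, and 55 held 1. The largest was the Dlk1-Dio3 domain with its 7 members, followed by the chromosome 14 copies with 4. Overlap with another annotated gene was found for 49 members, with another member for 10, and with a gene on the opposite strand for 29. Chromosome 12 held 11 members, 7 of them in the Dlk1-Dio3 domain, chromosome 1 held 9 and the X chromosome 7. Of protein-coding members 10% were on the X chromosome, beside 7.62% of protein-coding genes silent in both genotypes and 3.05% of those on in both. The overlaps and the other chromosomes were not compared with all genes, so nothing is read from those counts.

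The nearest protein-coding genes outside the set, 143 in all, were measured to see whether neighbours moved too. Of these, 16 (11.2%) were called higher, beside 7.21% of all protein-coding genes, and 7 (4.9%) were called lower, beside 7.08%. Their median log2 fold change was 0.28, beside -0.03 for protein-coding genes. Within 100 kb of a member 8 of 59 were called higher and 1 lower (median 0.39), and farther away 8 of 84 were called higher and 6 lower (median 0.12). This difference was not tested, since the neighbours were picked by the members.

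Several called neighbours are related to the member. Serpinb8 beside Serpinb2 had 2 and 10 against 1060 and 1071 reads (7.48), Pi15 beside Crispld1, both cysteine-rich secretory proteins, 16 and 9 against 537 and 561 (5.48), and Sp140 beside Sp100 53 and 79 against 132 and 150 (1.13). Serpinb5, on the other side of Serpinb2, had 26 and 35 against 0 and 0 reads and was not called, its mean being under 100. Others are not: Bhlhb9 beside Arxes2 had 12 and 8 against 3832 and 4021 (8.64), Gcnt2 beside Tfap2a had a log2 fold change of 2.00, and Tspan2 beside Sycp1 -2.74. Beside Irx1, Irx2, Sox2, Msx1 and Pax3 no nearest protein-coding gene was called in either direction. Adamts16, to the left of Irx1 and Irx2, had 1 and 2 against 32 and 17 reads (3.96), its mean also being under 100.

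**Figure D4:**
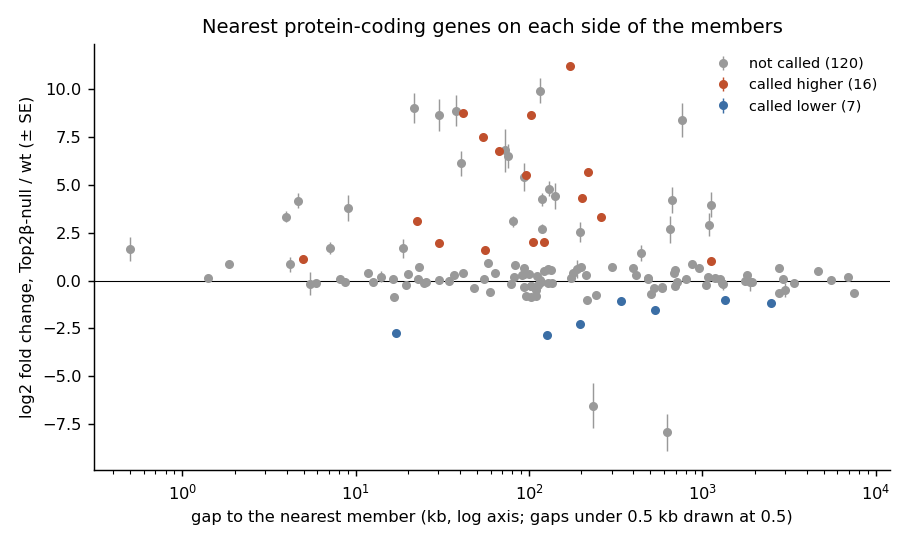
Log2 fold change (Top2β-null over wt, bars are SE from edgeR) of the 143 nearest protein-coding genes on either side of the members, by the gap in kb (log axis); red genes were called higher (16), blue lower (7) and grey not called (120). Grey points far from 0 have a mean normalized count of at most 100, and fitted values of genes with no wt read depend on the prior count.

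The rule used no sequence, so the start of the members can be compared with that of other genes, as a description. In the first 300 bases of the transcript, the ratio of observed to expected CpG had a median of 0.614 in the 60 protein-coding members. The median was 0.235 in 5579 protein-coding genes silent in both genotypes and 0.778 in 11036 on in both. A ratio above 0.6, a usual mark of a CpG island, was found in 50% of members, in 12.4% of genes silent in both and in 74.1% of genes on in both. The members thus held both kinds of start in equal numbers. The mirror rule, genes silent in Top2β-null and on in wt MEF cells, gave 20 genes, and 56.2% of its 16 protein-coding genes had a ratio above 0.6.

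**Figure D5:**
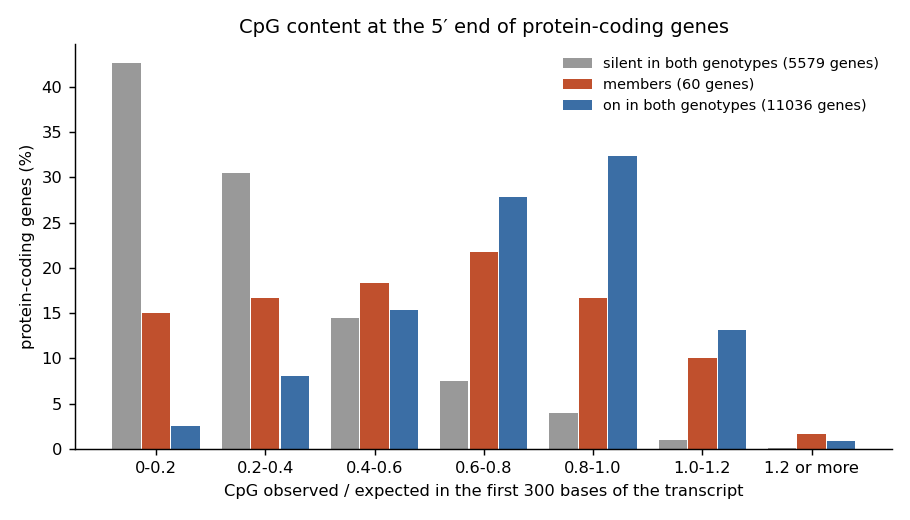
Share of protein-coding genes (%) by the ratio of observed to expected CpG in the first 300 bases of the transcript, for genes silent in both genotypes (grey), members (red) and genes on in both (blue). Members are spread over the whole range, with 15% under 0.2 beside 42.6% of genes silent in both, and 16.7% from 0.8 to 1.0 beside 32.3% of genes on in both.

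Gene length was compared in the same way. A length of 100 kb or more was found for 15 of 60 protein-coding members (25%), for 5.85% of genes silent in both genotypes, for 13% of genes on in both and for 3 of 16 mirror genes (18.8%). The median was 28.4 kb for members, 7.38 kb for genes silent in both and 24.5 kb for genes on in both. The longest was Mdga2 at 756.5 kb. Length here is the genomic span, introns included, which differs from the exon length that reads are counted over.

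Levels can be compared between genes only per length. In TPM, computed from the deposited counts over exon length, the members ran from 0.382 to 161.4 with a median of 3.03 in Top2β-null MEF cells. After Grb10, the highest protein-coding members were Irx2 (47.7 ± 0.274, SD, n = 2), Irx1 (36.0 ± 0.322), Crabp1 (30.0 ± 1.69) and Arxes2 (27.2 ± 1.61). Each step of this order from Grb10 to Arxes2 was larger than the SDs of the pair, with the closest pair at 31.2 and 28.8 (Crabp1) and at 26.1 and 28.4 (Arxes2) in the single libraries. Crabp1, short at 802 exon bases, thus stood above Brinp3 (20.1 ± 1.01) although it had fewer reads. Gm24895, at 106.8 TPM, has 74 bases, so its value per length is not comparable with those of long genes.

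Near the limits of the rule the members differed little from genes left outside. Bche (0 and 3 against 140 and 139 reads), followed by Larp6 and Mir1906-1 with equal counts (0 and 0 against 143 and 144), were the closest inside the 1 CPM limit. Mmp3 (1 and 1 against 131 and 138) and Gm45104 (1 and 1 against 128 and 135) were the closest outside. At the wt limit, Mirg and Gm26751 had 3 reads in 1 library, and Gm42047 (4 and 3 against 13369 and 14339) and Nynrin (3 and 4 against 2041 and 2154) had 4. In all, 18 genes were outside by 1 read, and 84 had 4 to 10 reads in the wt library with more of them and 1 CPM or more in both Top2β-null libraries.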

How the data were processed

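RNA-seq of total RNA without ribosomal RNA covered 2 wt and 2 Top2β-null MEF libraries. Per the authors' methods, trimmed paired-end reads were aligned with STAR to mm10 and counted with TEtranscripts over Gencode M9 genes and repeat families. The deposited values are raw counts by the authors, not normalized. STAR kept reads with several matches; how TEtranscripts shared them and its strand setting are not given in the sources used here. Of 54842 genes, 54495 matched GENCODE M21, which gave symbols, positions and lengths on GRCm38.

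Members and gene lists were chosen with earlier results of these data known. Named genes are the 20 most abundant protein-coding and 5 most abundant other members, up to 4 members of each list, some of their flanking genes, the 2 most changed non-members of each list, and genes at the limits, while other genes were picked with their values in view. The filter asked for 10 counts or more in 2 libraries (26566 features), and edgeR 4.0.16 in R 4.3.3 (TMM, quasi-likelihood, Benjamini-Hochberg over all features) was used, with DESeq2 1.42.0 as an alternative. The cut-offs for calls follow the authors' methods. Both tools were tested on simulated data. Floors and intervals cover counting error only. The 5′ ends (300 bases of the longest basic transcript) were chosen after the promoter table was seen to hold too few members. The values of 1 member are not reported here.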

Additional observations from a re-analysis of the deposited data

How the results depend on the processing

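The members depend on the limits of the rule. With 0 wt reads required, 46 genes met it, with at most 10 reads 176, with at least 0.5 CPM 163 and with at least 2 CPM 47. With one library left out in turn, between 96 and 117 genes met it. Genes called higher numbered 816 with a filter of at least 100 counts in every library and 8218 with the adjusted p as the only cut-off, and genes called lower 8445 with the latter. Flanking genes called higher numbered 9 and 85 under the same settings, and 8 within 100 kb. Genes of the lists called higher numbered 111 and 508. The filter on every library removes genes that are low in wt. Leaving out one library gave 1186 to 1453 genes higher, 1241 to 1351 lower, 13 to 15 flanking genes, 166 to 201 genes of the lists and -2.28 to -2.22 for Top2b. Same-numbered libraries did not deviate together (correlation 0.00458 over 16443 features), and with the replicate block 1386 genes were called higher, 1318 lower, 16 flanking genes and 195 genes of the lists, with Top2b at -2.26. DESeq2, TMM factors from genes only and scaling to the total count moved none of these counts by 1.5 times. The least abundant member rests on 139 reads in a library, and wt levels of 0 to 3 reads cannot be ordered at this depth.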

Other observations

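Further lists were described in the same way outside the members, and their counts stand beside 7.21% called higher and 7.08% lower among protein-coding genes. Of 114 other ligands, receptors and antagonists of the WNT, BMP, FGF, hedgehog, Notch and other growth factor pathways tested, 29 were called higher and 21 lower, led by Hgf (log2 fold change 11.19, SE 0.129) and, lower, Pdgfd (247 and 231 against 1 and 0 reads). Of 70 axon guidance genes, none of them a member, 14 were called higher and 9 lower, with Sema3e at 9.75 (SE 0.117) and Sema4f at -7.86 (SE 0.163). Of 101 matrix glycoproteins and proteases outside the Col genes, 23 were called higher and 12 lower, with Smoc1 at 9.23 (SE 0.0665) and Fbn2 at 6.36 (SE 0.0713). T-box factors had 2 higher and 2 lower of 10, with Tbx3 at 3.41 (SE 0.0545) and Tbx1 at 1244 and 1262 against 2 and 0 reads, and forkhead factors 4 higher and 3 lower of 29, with Foxa1 at 5.73 (SE 0.291) and Foxo6 at -3.84 (SE 0.18). Keratins and epithelial genes had 0 higher and 2 lower, Krt80 (-1.60) and Grhl1 (-1.13), of 20 (edgeR; 3 were higher at an unadjusted p below 0.05, and DESeq2 called 0 higher). Over all 16 lists, 195 of 1176 genes outside the members (16.6%) were called higher and 125 (10.6%) lower.

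Marker lists of other cell types summed as follows in normalized counts. Endothelial markers had 3003 and 3140 in wt and 2213 and 2224 in Top2β-null MEF cells, most of it Ramp2 (2444 and 2645 against 1357 and 1429 reads), while Kdr, the 1 marker called of 8 tested, was higher (71 and 71 against 196 and 207). Epithelial markers had 1027 and 1074 against 687.7 and 709.1, glial markers 301.8 and 334.2 against 248.6 and 181.2, and skeletal muscle markers 1080 and 1065 against 761.2 and 767.6. In each of these lists 1 marker was called lower and 0 higher, of 7, 5 and 4 tested. Cartilage markers had 4564 and 4605 against 5119 and 5227, nearly all of it Sox9 (4337 and 4569 against 4690 and 5035 reads). The other cartilage markers had fewer reads than Sox9, with Col2a1 at 8 and 10 against 160 and 168, Acan at 98 and 104 against 5 and 4 and Matn3 at 36 and 37 against 4 and 1. Adipocyte markers had 59.5 and 80.2 against 657.7 and 597.2, nearly all of it Fabp4 (8 and 2 against 552 and 539 reads), while Adipoq had at most 3 reads in any library. Their part in the members' values was not tested.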
